A study of Mus musculus with 12 samples.

Results

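Phospholipase C (PLC) genes were described in bone marrow-derived macrophages (BMDMs), cultured from progenitors of mouse bone marrow. The 8 genes *Plcb2*, *Plcb3*, *Plcb4*, *Plcg1*, *Plcg2*, *Plcd1*, *Plcl1*, and *Plcl2* were chosen by their symbols, and all 8 were found among the 18376 genes listed. The choice was made with earlier results of these data known, and it leaves out other PLC genes. The study asked how activin A, a cytokine of the TGF-β family, regulates macrophages. Cells came from adult wild-type C57BL6/J mice and were all grown with 50 ng/ml M-CSF. CTRL cultures had no further treatment. Act cultures received activin A at 50 ng/ml, FST cultures received the follistatin form FST288 at 250 ng/ml, and Act + FST cultures received both at these doses. Treatment lasted 6 days, and each group has 3 libraries. Follistatin is an extracellular antagonist that captures activin A. The libraries are bulk cultures, in which fewer cells of a type and less RNA per cell cannot be told apart.

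PLC enzymes cut the membrane lipid phosphatidylinositol 4,5-bisphosphate into inositol trisphosphate, which releases calcium from internal stores, and diacylglycerol, which recruits protein kinase C and RasGRP proteins. PLCβ enzymes are switched on by G protein-coupled receptors, among them chemokine receptors, whereas PLCγ enzymes are switched on by tyrosine kinases downstream of Fc and growth factor receptors. PLCδ1 responds to calcium itself. PLCL1 and PLCL2 resemble PLCδ but have no catalytic activity, and they bind inositol trisphosphate and other proteins instead. In the pathway terms deposited with the table, 6 of the 8 genes carry the term for phosphatidylinositol signaling, the exceptions being *Plcl1* and *Plcl2*. Only the 3 *Plcb* genes carry the term for chemokine signaling, and *Plcg1* and *Plcg2* carry the term for Fcγ receptor-mediated phagocytosis.

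Activin A changed 6 of the 8 PLC genes, in both directions. When cultures with activin A and FST288 were compared with CTRL, limma called 0 of the 8 and 0 of all 14318 genes. That count therefore does not show that FST288 returned the 8 genes to the level of CTRL. In the same comparison, *Plcb4* (log2 fold change 0.74) and *Plcd1* (0.5) were higher at an unadjusted p under 0.05, as the only members. Of all genes, 4.57% had such a p in either direction. In Act versus CTRL, 5 of the 8 genes were higher and 1 was lower at an adjusted p of at most 0.05 in limma, where 20.2% of all 14318 genes tested were called (10.3% higher and 9.97% lower). Because the 8 genes were chosen with earlier results known, their count beside this share describes them and tests nothing about the family. *Plcb4* and *Plcl1*, the lowest of the 8 genes in CTRL, rose most, by 4.81-fold and 3.90-fold. *Plcd1* rose 2.01-fold. These 3 genes also met the 2-fold limit for differentially expressed genes (DEGs), which 2.58% of all genes met in this direction. Among the abundant members, *Plcg2* and *Plcb3* rose by 27.9% and 20.8%, and *Plcb2* fell by 17.4%. The median log2 fold change was 0.31 over the 8 genes and 0.00 over all genes tested. Values of CTRL and Act did not overlap for 7 of the 8 genes, against 35.7% of all genes. Since all 8 genes had a mean normalized count of at least 5, none was lost to the filter on low values.

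**Figure D1:**
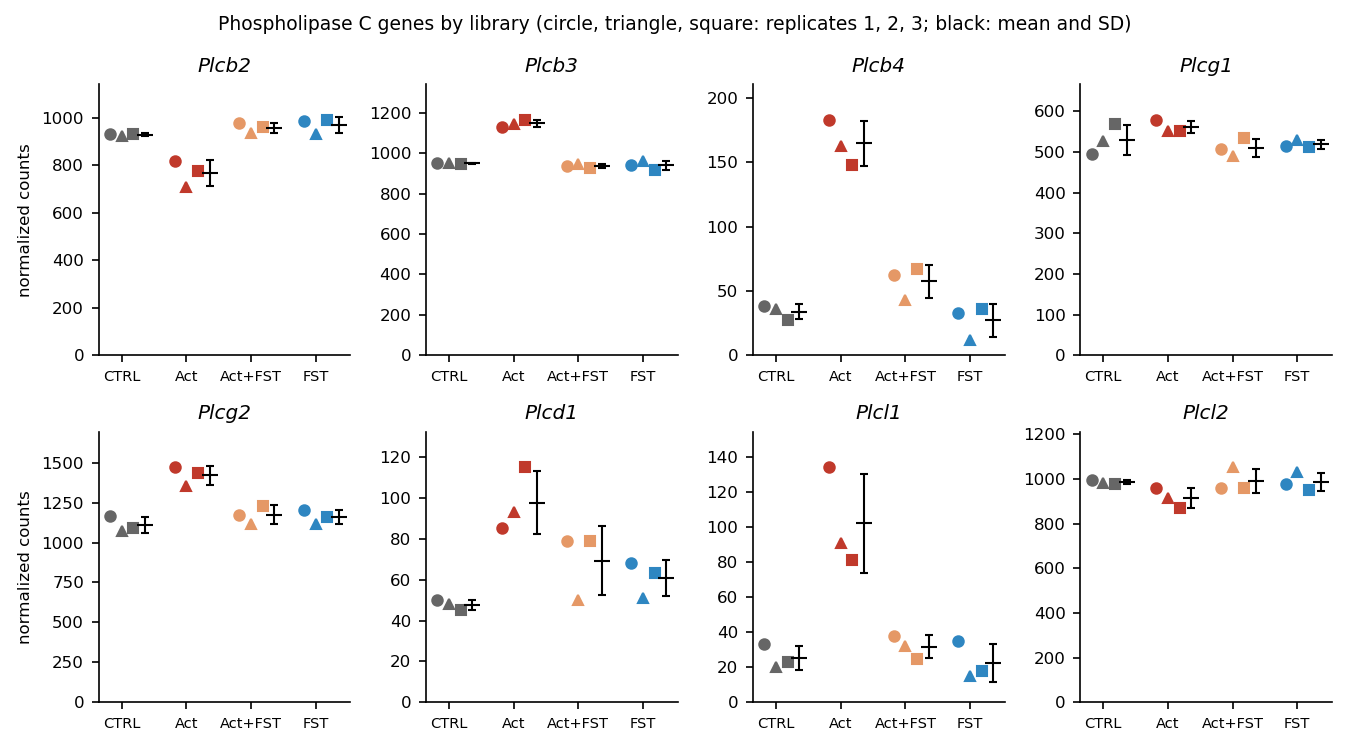
Normalized counts of the 8 PLC genes in each of the 12 libraries, with a linear axis from 0, a symbol per library, and the mean with its SD in black. *Plcb4*, *Plcl1* and *Plcd1* stand higher in Act than in CTRL in all 3 replicates, and *Plcb2* stands lower.

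The sequence upstream of the start site was inspected for the genes that rose 2-fold, and for *Plcg1*, which was not called in Act versus CTRL. RefSeq start sites (GRCm38.p6) were used for 7 of the 8 genes. The 250 bases before each start were searched on both strands for CAGAC, a short form of the SMAD box that activin-activated SMAD proteins can bind. It occurs in 42.2% of all 32851 such windows, so its presence or absence in a single window says little. *Plcb4* has 2 annotated starts, and its inner start (GC content 42.8%) holds 1 match, whereas the outer one (85.2% GC) holds 0. *Plcd1* likewise has 1 match at its inner start (58.0% GC) and 0 at the outer one. *Plcl1* has 0 matches and *Plcg1* has 4, 2 of them overlapping. Which start the BMDMs used was not measured. In the lines that follow, capitals mark the matches, and each sequence is read 5′ to 3′ on the strand of the gene.
Plcb4, inner start, chr2:135764588-135764837, plus strand: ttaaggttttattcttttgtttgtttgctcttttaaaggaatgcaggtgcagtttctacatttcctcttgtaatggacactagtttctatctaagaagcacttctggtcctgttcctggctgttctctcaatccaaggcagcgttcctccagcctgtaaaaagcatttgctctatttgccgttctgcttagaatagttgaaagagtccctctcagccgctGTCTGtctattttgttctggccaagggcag
Plcd1, inner start, chr9:119088262-119088511, minus strand: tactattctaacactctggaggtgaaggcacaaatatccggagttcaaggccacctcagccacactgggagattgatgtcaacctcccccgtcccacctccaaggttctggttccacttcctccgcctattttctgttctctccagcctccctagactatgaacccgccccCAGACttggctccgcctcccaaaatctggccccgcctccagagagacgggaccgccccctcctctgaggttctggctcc
Plcl1, chr1:55405696-55405945, plus strand: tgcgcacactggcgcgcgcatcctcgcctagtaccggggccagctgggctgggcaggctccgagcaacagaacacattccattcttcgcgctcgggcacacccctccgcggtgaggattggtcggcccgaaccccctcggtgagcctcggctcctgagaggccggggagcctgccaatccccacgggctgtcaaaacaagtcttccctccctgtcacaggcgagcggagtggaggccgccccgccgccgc
Plcg1, chr2:160731060-160731309, plus strand: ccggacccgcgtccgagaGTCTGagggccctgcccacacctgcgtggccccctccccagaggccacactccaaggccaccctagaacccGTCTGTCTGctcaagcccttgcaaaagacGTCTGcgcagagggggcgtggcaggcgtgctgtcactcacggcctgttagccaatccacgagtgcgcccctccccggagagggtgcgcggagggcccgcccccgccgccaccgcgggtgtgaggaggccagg
The windows of *Plcb2*, *Plcb3* and *Plcg2* hold 0 matches each. The AP-1 site TGACTCA, found in 4.46% of all windows, occurs among the members only before *Plcb3* (1 match). The PU.1 motif GAGGAAGT, found in 2.44%, occurs only at the inner start of *Plcd1* (1 match).

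*Plcg2* (ENSMUSG00000034330, chromosome 8 of GRCm38 from 117498291 to 117635142), the PLCγ isoform of blood cells, had the highest level for its length. In CTRL it stood at 258 ± 11.6 normalized counts per exonic kilobase (SD, n = 3). It was followed by *Plcl2* (149 ± 1.26), *Plcb2* (141 ± 0.875), *Plcb3* (137 ± 0.648), *Plcg1* (67.4 ± 4.72), and *Plcd1* (15.4 ± 0.814). *Plcl1* (3.79 ± 1.02) and *Plcb4* (3.75 ± 0.653) came last. All neighbours in this order had ranges that did not overlap, except *Plcl1* and *Plcb4*. The order changed in Act, where *Plcb3* (165 ± 2.47) passed *Plcl2* (138 ± 6.94) and *Plcb2* (116 ± 8.40), and the ranges of these 3 genes stayed apart. In Act + FST and in FST, the order was that of CTRL for the first 6 genes, but the ranges of *Plcl2* and *Plcb2* overlapped. The exonic length joins the exons of all annotated transcripts, so levels of genes with many rarely used exons are understated.

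**Figure D2:**
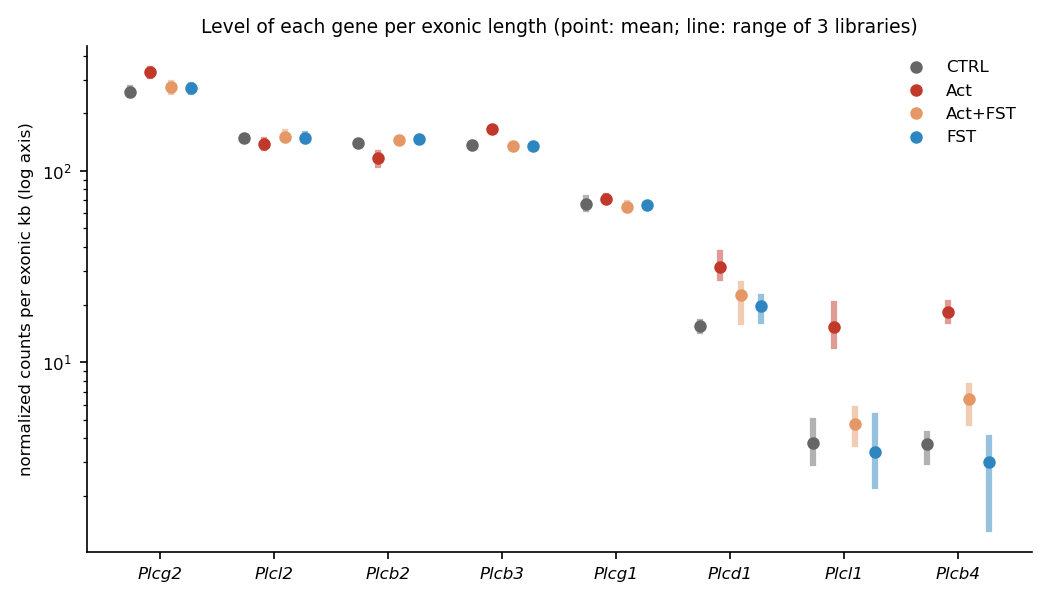
Level of each PLC gene in normalized counts per exonic kilobase on a log axis, ordered by CTRL, with the mean as a point and the range of 3 libraries as a line for each group. *Plcg2* is highest in every group, and *Plcl1* and *Plcb4* move from about 4 in CTRL to between 12.1 and 20.4 in Act.

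Among the PLCβ genes, *Plcb4* showed the largest change. *Plcb4* (ENSMUSG00000039943, chromosome 2 from 135659011 to 136014593) encodes an isoform best known from neurons. In CTRL, its normalized counts were 38, 36 and 27 for replicates 1, 2 and 3, in that order as for all genes here. They were 183, 163 and 148 in Act, with FST288 added 62, 43 and 67 (Act + FST), and with FST288 alone 33, 12 and 36 (FST). Every Act library lay above every other library, and the Act + FST libraries lay between Act and CTRL without overlapping either. Against CTRL the log2 fold change of Act reached 2.27 (standard error 0.332, adjusted p = 4.3e-04), and against Act + FST it reached 1.53 (adjusted p = 0.0056). Act + FST exceeded CTRL by a log2 fold change of 0.74, with a 95% confidence interval from 0.02 to 1.46, which did not pass the threshold (adjusted p = 1, and 0.33 with the replicate block).

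*Plcb2* and *Plcb3*, both of which respond to G protein βγ subunits as well, moved in opposite directions. *Plcb2* (ENSMUSG00000040061, chromosome 2 from 118707517 to 118728438), an isoform found mainly in blood cells, was at 931, 921 and 931 normalized counts in CTRL and at 818, 708 and 775 in Act. It was at 978, 936 and 959 in Act + FST and at 987, 932 and 991 in FST. Act was below all other libraries, with a log2 fold change of −0.28 against CTRL (standard error 0.050, adjusted p = 0.0018) and −0.32 against Act + FST (adjusted p = 6.3e-04). *Plcb3* (ENSMUSG00000024960, chromosome 19 from 6952325 to 6976470), a widely expressed isoform, was at 951, 955 and 946 in CTRL and at 1133, 1146 and 1167 in Act. It was at 940, 947 and 929 in Act + FST and at 942, 961 and 920 in FST, all below the Act libraries. Its log2 fold change in Act was 0.27 versus CTRL (standard error 0.033, adjusted p = 1.0e-04) and 0.29 versus Act + FST (adjusted p = 6.0e-05). Within a library, where the scaling has no part, the ratio of *Plcb3* to *Plcb2* per exonic length was between 0.963 and 0.983 in CTRL and between 1.31 and 1.53 in Act. In Act + FST it was between 0.911 and 0.959, and in FST between 0.880 and 0.977.

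The PLCγ genes differed in their response. *Plcg2* was at 1167, 1072 and 1092 normalized counts in CTRL, 1472, 1353 and 1436 in Act, 1175, 1113 and 1231 in Act + FST, and 1204, 1113 and 1159 in FST. Act stood above the other groups, which overlapped each other. The log2 fold change was 0.36 versus CTRL (standard error 0.052, adjusted p = 4.3e-04) and 0.28 versus Act + FST (adjusted p = 0.0023). *Plcg2* reached 0.331 normalized counts per exonic base in Act, the highest of the 8 genes, against a median of 0.0357 over all genes and a highest value of 0.883 (*Psap*, named after its value was seen). When values were corrected for reads that start at the same base, an alternative chosen with the data in view, its log2 fold change of Act versus CTRL became 0.425. *Plcg1* (ENSMUSG00000016933, chromosome 2 from 160731300 to 160775760), the widely expressed isoform, was at 494, 526 and 568 in CTRL, 579, 552 and 552 in Act, 507, 489 and 534 in Act + FST, and 514, 530 and 511 in FST. CTRL and Act overlapped, and the log2 fold change of 0.09 (95% confidence interval −0.03 to 0.20) did not pass the threshold (adjusted p = 0.30). Against Act + FST it was 0.14 (adjusted p = 0.088, and 0.045 with the replicate block). Genes on the opposite strand, *Zhx3* and *Gm27206*, share 7.98% of the exonic bases of *Plcg1*, and the strand setting of the counting was not given in the sources used here.

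*Plcd1* (ENSMUSG00000010660, chromosome 9 from 119071527 to 119093502) rose in Act, and its means in the groups with FST288 lay between those of CTRL and Act. It had 50, 48 and 45 normalized counts in CTRL, 85, 93 and 115 in Act, 79, 50 and 79 in Act + FST, and 68, 51 and 63 in FST. All Act libraries were above all others, and the groups with FST288 overlapped each other. Act + FST also overlapped CTRL, whereas FST did not. Against CTRL the log2 fold change of Act reached 1.01 (standard error 0.189, adjusted p = 0.0024), so close to the 2-fold limit that it fell to 0.89 without Act replicate 3 and to 0.97 without CTRL replicate 3. Act versus Act + FST gave 0.51, which passed the threshold only with the replicate block (adjusted p = 0.026, against 0.078 without it) or with quantile normalization (adjusted p = 0.031). Act + FST versus CTRL gave 0.50 with a 95% confidence interval from 0.09 to 0.91 (adjusted p = 0.94, and 0.23 with the block). FST versus CTRL gave 0.33 with a 95% confidence interval from −0.08 to 0.74 and was not called.

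The catalytically inactive members differed. *Plcl1* (ENSMUSG00000038349, chromosome 1 from 55405921 to 55754285) had 33, 20 and 23 normalized counts in CTRL, 134, 91 and 81 in Act, 38, 32 and 25 in Act + FST, and 35, 15 and 18 in FST. The Act libraries were higher than every other library, and the other 3 groups overlapped. The log2 fold change was 1.96 versus CTRL (standard error 0.312, adjusted p = 7.6e-04) and 1.64 versus Act + FST (adjusted p = 0.0025). Replicate 1 was the highest of its group in all 4 groups. Replicate 1 also had the highest summed normalized counts of 5 stromal cell markers (*Col1a1*, *Col1a2*, *Col3a1*, *Pdgfrb*, and *Dcn*). These sums were 77 (CTRL), 247 (Act), 111 (Act + FST) and 130 (FST), against 22 to 61 in the other 8 libraries. Most of the excess lay in *Col1a1* and *Col1a2*. *Pdgfrb* was lower in replicate 1 than in replicate 2 in CTRL (22 against 31) and in Act + FST (21 against 27). In Act and FST it was highest in replicate 1. None of the 3 stromal markers tested was called in Act versus CTRL without the replicate block, and 1 (*Pdgfrb*) was higher in Act versus Act + FST. With the block in limma, *Col1a2* (log2 fold change 2.76, adjusted p = 4.7e-04) and *Pdgfrb* (0.84, adjusted p = 0.026) were higher in Act versus CTRL. *Col1a1* was not called (adjusted p = 0.09), where 31.5% of all genes were called. In replicates 2 and 3 alone, *Plcl1* rose by a log2 fold change of 1.95 (adjusted p = 8.3e-04), *Plcb4* by 2.28 (adjusted p = 0.0076) and *Plcd1* by 1.14 (adjusted p = 0.011). In these replicates the stromal sums were also higher in Act (61 and 55) than in CTRL (35 and 25). Most of each sum was *Pdgfrb* (41 and 43 in Act, 31 and 22 in CTRL). The paper reports by qRT-PCR that activin A raised *Pdgfrb* in BMDMs. The part of stromal cells in the changes of *Plcl1*, *Plcb4* and *Plcd1* was not tested. *Plcl2* (ENSMUSG00000038910, chromosome 17 from 50509403 to 50688484) was at 996, 984 and 980 in CTRL and at 962, 917 and 870 in Act. It was at 958, 1054 and 961 in Act + FST and at 980, 1031 and 950 in FST. Its Act libraries lay below those of CTRL but overlapped those of Act + FST and FST. Its log2 fold change of −0.11 (95% confidence interval −0.22 to 0.00) did not pass the threshold (adjusted p = 0.16). It passed with quantile normalization (adjusted p = 0.033), which gave −0.14. Against Act + FST it was −0.11 (adjusted p = 0.14, and 0.045 with the replicate block).

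**Figure D3:**
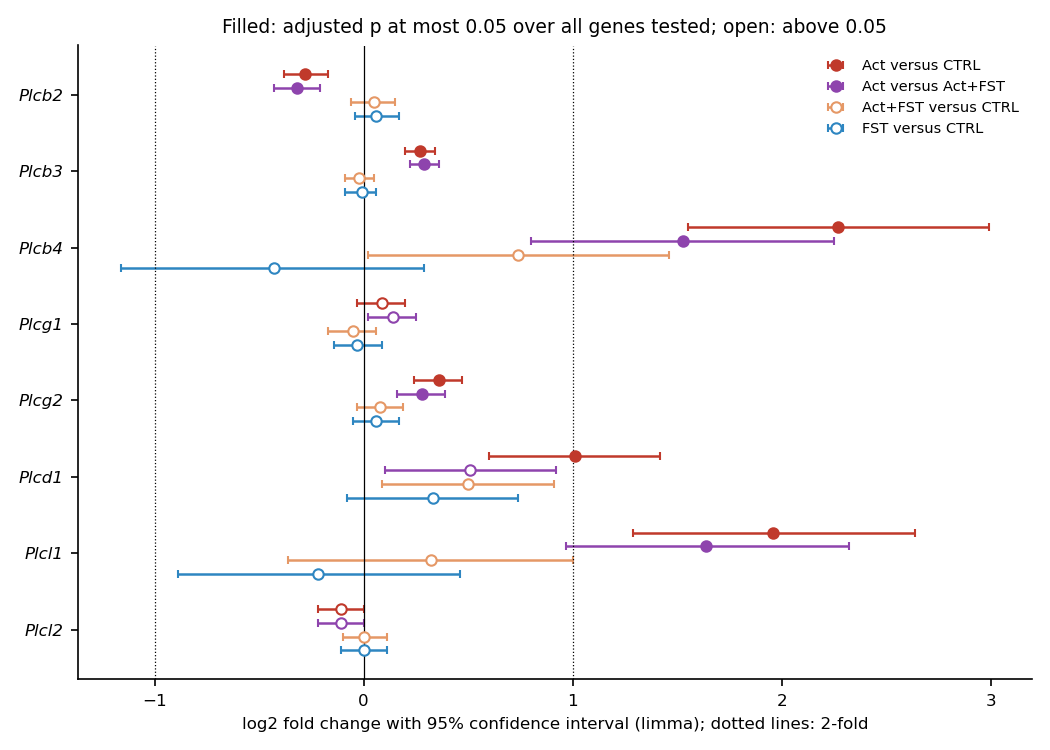
Log2 fold changes of the 8 PLC genes with 95% confidence intervals from limma in 4 comparisons, filled where the adjusted p over all genes was at most 0.05. In both comparisons of Act, the intervals of *Plcb4*, *Plcl1*, *Plcd1*, *Plcb3* and *Plcg2* lie above 0 and those of *Plcb2* below it. The point of *Plcd1* in Act versus Act + FST is open, as are all points of Act + FST and FST versus CTRL.

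The effect of adding FST288 to activin A was read from 2 comparisons. In Act versus Act + FST, limma called 4 genes higher and 1 lower in Act (11.1% and 10.2% of all genes), of which *Plcb4* and *Plcl1* were also at least 2-fold higher (2.72% of all genes). With the replicate block, all 8 genes were called (32.6% of all genes, against 21.3% without it). The 7 genes whose libraries did not overlap in this comparison were all except *Plcl2* (34.1% of all genes). In Act + FST versus CTRL, limma called 0 of the 8 genes and 0 of all 14318 genes, and with the replicate block 0 of the 8 and 0.559% of all. *Plcb4* and *Plcd1* had an unadjusted p under 0.05, as did 4.57% of all genes. Act + FST and CTRL did not overlap for *Plcb4* and *Plcb2* (6.68% of all genes). FST versus CTRL also gave 0 called genes, of the 8 and of all, and 0 of the 8 had an unadjusted p under 0.05 (2.09% of all genes). FST and CTRL did not overlap for *Plcb2* and *Plcd1* (5.55% of all genes). For the 5 abundant members (*Plcb2*, *Plcb3*, *Plcg1*, *Plcg2*, and *Plcl2*), the 95% confidence intervals of FST versus CTRL lay within −0.14 and 0.17 on the log2 scale. They were wider for the less abundant genes, from −1.16 to 0.29 for *Plcb4*, −0.08 to 0.74 for *Plcd1*, and −0.89 to 0.46 for *Plcl1*.

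Whether the effect of activin A itself depended on FST288 was tested as an interaction, the difference Act minus CTRL less the difference Act + FST minus FST. It was called for 3 of the 8 genes (2 higher, 1 lower), where 6.74% of all genes were called (3.99% higher and 2.75% lower). These were *Plcb3* (log2 difference 0.28, adjusted p = 0.0037), *Plcg2* (0.34, adjusted p = 0.016) and *Plcb2* (−0.26, adjusted p = 0.047). In replicates 2 and 3 alone, 1 gene was called, *Plcb3*. The largest differences, 1.43 for *Plcl1* (adjusted p = 0.077), 1.09 for *Plcb4* (0.21) and 0.84 for *Plcd1* (0.085), did not pass the threshold. With the replicate block, *Plcl1* (adjusted p = 0.0020) and *Plcd1* (0.021) were called as well, giving 5 genes where 16.3% of all genes were called. *Plcd1* also passed with quantile normalization (adjusted p = 0.040). *Plcb4* was called without FST replicate 2, its lowest library (log2 difference 1.57, adjusted p = 0.0094).

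The summed level of the 8 genes per exonic kilobase was 774.8 ± 11.99 in CTRL and 887 ± 29.4 in Act (SD, n = 3), and the groups with FST288 had 801 ± 15.7 with activin A and 793 ± 14.6 without it. *Plcg2* made up 33.3% ± 0.989 of this sum in CTRL and 37.3% ± 0.493 in Act. The share of *Plcb2* was 18.1% ± 0.206 in CTRL and 13.1% ± 0.524 in Act, and that of *Plcl2* was 19.2% ± 0.186 and 15.6% ± 0.701. *Plcb4*, *Plcd1* and *Plcl1* together held 2.96% ± 0.249 in CTRL and 7.35% ± 0.117 in Act, against 4.18% ± 0.784 in Act + FST and 3.27% ± 0.640 in FST. The genes that rose most were still a small part of the sum in Act.

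Genes that act with PLC were followed with a list of 93 genes, of which 79 were tested. In Act versus CTRL, 20 were higher and 6 lower (median log2 fold change 0.05), and in Act versus Act + FST, 19 were higher and 7 lower. This was 32.9% of the list in each comparison, beside 20.2% and 21.3% of all genes. The lists by role are small, and their counts in Act versus CTRL are to be read against the 10.3% of all genes that were higher and the 9.97% that were lower. Of 10 other PLC genes, 3 were tested and *Plcd3*, a further PLCδ isoform, was called, from normalized counts of 5, 7 and 8 (CTRL) to 14, 14 and 19 (Act) (log2 fold change 1.13, adjusted p = 0.027). Its call was lost without any 1 of 5 of the 6 libraries (adjusted p up to 0.10), the exception being CTRL replicate 3. Of the Gq class alpha subunits that switch on PLCβ, 1 of 3 tested was higher (range of log2 fold changes 0.08 to 0.78). Upstream of PLCγ, 4 of 15 tyrosine kinases and adaptors were higher and 1 was lower (33.3% of them, beside 20.2% of all genes). Among these, *Fgr*, a Src family kinase of myeloid cells, went from normalized counts of 111, 127 and 70 (CTRL) to 285, 243 and 275 (Act) (log2 fold change 1.41, adjusted p = 0.0033). Its 3 Act libraries were above all CTRL libraries, and 35.7% of all genes did not overlap between these groups.

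Of 10 genes that supply phosphatidylinositol 4,5-bisphosphate, 2 were higher and 1 lower (30.0%, beside 20.2% of all genes), with log2 fold changes between −0.21 and 0.19. Of 12 inositol trisphosphate receptor and inositol phosphate genes, 5 were higher and 1 lower (50.0%). *Inpp4b*, a phosphatase that acts on phosphatidylinositol 3,4-bisphosphate, went from 223, 135 and 207 normalized counts in CTRL to 929, 739 and 770 in Act (log2 fold change 2.13, adjusted p = 1.8e-04). It stood at 313, 189 and 269 in Act + FST. The 22 diacylglycerol effectors and kinases had 5 genes higher and 3 lower (36.4%), and both RasGRP exchange factors named here lie in this group. *Rasgrp1* went from 22, 21 and 10 in CTRL to 51, 41 and 64 in Act (log2 fold change 1.56, adjusted p = 0.0062), whereas *Rasgrp4*, a form of mast cells and other myeloid cells, fell from 557, 590 and 490 to 248, 288 and 232 (−1.09, adjusted p = 7.1e-06). *Dgkg*, a kinase that removes diacylglycerol, went from 17, 16 and 19 to 56, 50 and 47 (1.5, adjusted p = 0.0015). For each of these 4 genes, CTRL and Act did not overlap, as for 35.7% of all genes. They had been named for a called change of at least 2-fold, so their separation adds no support. Of 14 genes of store-operated calcium entry and calcium-dependent signaling, 2 were higher and 0 lower (14.3%, below the 20.2% of all genes). In Act + FST versus CTRL, limma called 0 of the 79 genes and 0 of all genes. At an unadjusted p under 0.05 there were 3, beside 4.57% of all genes. With the replicate block 1 was called, beside 0.559% of all genes.

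**Figure D4:**
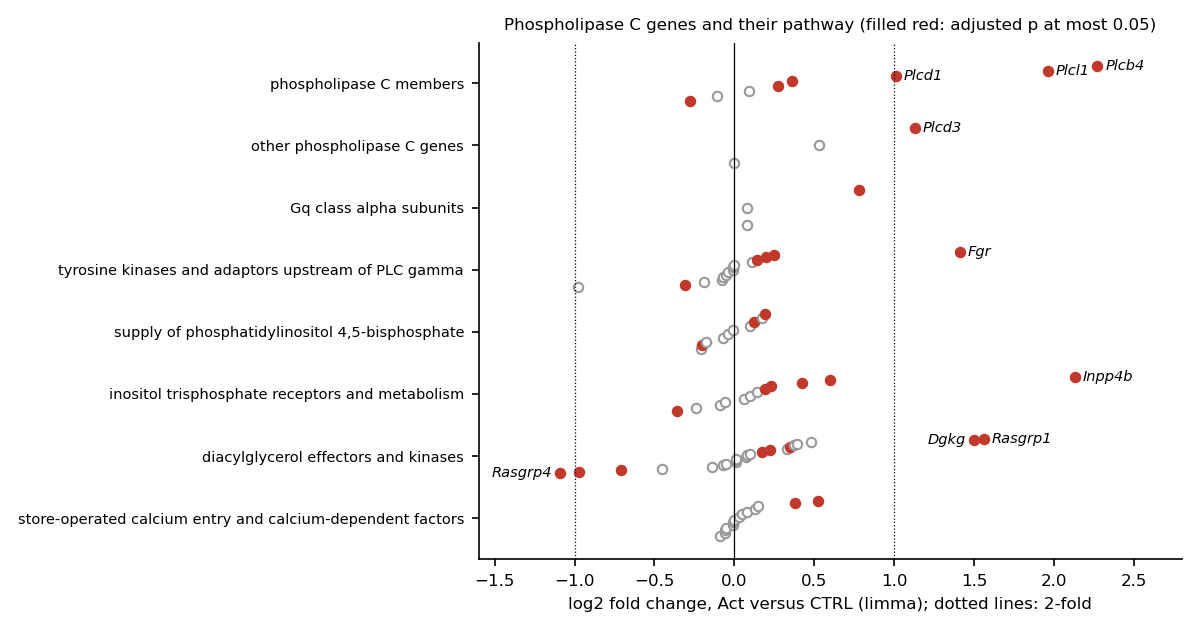
Log2 fold changes of Act versus CTRL from limma for the 8 PLC genes and the 79 tested genes of their pathway, 1 point per gene in rows by role, filled red at an adjusted p of at most 0.05 and labelled where the change was at least 2-fold. *Plcb4*, *Inpp4b* and *Plcl1* lie farthest to the right.

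Total normalized counts were between 5643708 and 5955400 per library. Macrophage markers were present at a summed 11172 to 12394 normalized counts in every library, with 1 of 8 (*Cd14*) higher in Act. The 4 monocyte markers summed to 435 to 867 in CTRL and 1080 to 1238 in Act, with *Ccr2* the only one called, and the 8 neutrophil markers to 1258 to 1627 and 1002 to 1556, with *Elane* and *Mpo* lower. Dendritic cell markers summed to 87 to 186 in CTRL and 115 to 194 in Act (*Cd209a* lower), B cell markers to 84 to 124 and 82 to 122, T cell markers to 1 to 3 and 4 to 8, and mast cell or basophil markers to 37 to 66 and 12 to 41 (*Kit* lower). Osteoclast markers summed to 140 to 214 and 212 to 222 (*Acp5* higher, *Ctsk* lower), and erythroid or megakaryocyte markers to 32 to 79 and 16 to 51. No listed marker was at 0 in all 12 libraries, and the part of these cells in the PLC results was not tested.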

How the data were processed

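The table the authors deposited holds a non-negative signal for 18376 genes in 12 libraries. It consists of read counts per gene, each library scaled by its own factor, written as whole numbers (normalized counts). Whether reads with the same start position were removed before counting was not given in the sources used here. No gene exceeded 0.883 normalized counts per exonic base, and such a removal would compress levels, shares and fold changes of abundant genes such as *Plcg2*. Per the labels and the paper's methods, single-end reads were trimmed with Trimmomatic 0.39, aligned to mm10 with STAR 2.7.9a and counted with featureCounts 2.0.2, without reads that matched more than 1 gene or region. The formula of the scaling was not given in the sources used here, and whole reads were not recovered from the rounded values, so the depth in reads is unknown.

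Genes with a mean normalized count of 5 or more (14318) were tested with limma 3.58.1 in R 4.3.3 (trended empirical Bayes, two-sided) on log2(normalized count + 1), a scale that understates changes of low genes. All 12 libraries entered 1 model with 4 group means, and p-values were Benjamini-Hochberg adjusted over all genes. Genes were called at an adjusted p of at most 0.05, and DEGs also changed at least 2-fold. An exact permutation test of 3 against 3 libraries cannot go below p = 0.1 and was not used. The model was tested on simulated data. Same-numbered libraries deviated together (18 pairs, correlation 0.157 to 0.481 across genes), so the replicate number, taken from the labels, was used as a block in an alternative. Nothing in the labels says that replicates were separate cultures or mice, so p-values measure the spread between these libraries. Exonic lengths came from GENCODE M21 (18359 identifiers matched, 17 did not). Members and gene lists were chosen with earlier results of these data known. Named from the pathway list were genes changed at least 2-fold and called in Act versus CTRL or Act versus Act + FST, and beside each called member the 3 genes of mean at least 50 most correlated with it. Alternatives were pseudocounts of 0.5 and 5, no filter or a mean of at least 50, quantile normalization, only the libraries compared, the block, and leaving out each library. Replicates 2 and 3 only, and a correction for reads that start at the same base, were chosen after seeing the data. No count test was run, since the values are not counts.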

Additional observations from a re-analysis of the deposited data

Results flagged for a closer look

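For 7 named genes, the effect of activin A differed between cultures without and with FST288 by the interaction test in limma, which called 6.74% of all genes. Among the PLC genes the log2 difference was −0.26 for *Plcb2*, 0.28 for *Plcb3* and 0.34 for *Plcg2*. In the pathway list it was 1.53 for *Inpp4b* (adjusted p = 0.037), 1.35 for *Dgkg* (0.048), 1.5 for *Fgr* (0.040) and −1.18 for *Rasgrp4* (3.2e-04). In all 7 genes the 3 Act libraries lay apart from the 3 CTRL libraries, as they did in 35.7% of all genes. The genes of the pathway list had been named for a called change of at least 2-fold, so their separation adds no support. In 12 fits that each omitted a library, the call of *Plcb3*, *Plcg2* and *Rasgrp4* held in every fit, that of *Plcb2* was lost in 11 fits (adjusted p 0.020 to 0.11), *Inpp4b* in 9, *Dgkg* in 10 and *Fgr* in 8.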

How the results depend on the processing

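In Act versus CTRL, 6 PLC genes were called, and 3 with the 2-fold limit, 5 with a mean of at least 50 (a filter that removes *Plcl1*), and 7 with quantile normalization, which added *Plcl2*. In Act versus Act + FST the 5 called genes became 2, 4 and 7 under the same alternatives, and 8 with the replicate block. For the interaction, 3 became 0 with the 2-fold limit, 5 with the block, and 1 (*Plcb3*) in replicates 2 and 3 only. The block raised the genes called from 2896 to 4508 in Act versus CTRL, from 3048 to 4663 in Act versus Act + FST, from 0 to 80 in Act + FST versus CTRL, and from 965 to 2337 for the interaction, and the pathway genes from 0 to 1 in Act + FST versus CTRL and from 12 to 24 for the interaction (7 in replicates 2 and 3 only). The block changed no call of a PLC gene in Act versus CTRL, Act + FST versus CTRL or FST versus CTRL.

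With each library left out in turn, Act + FST versus CTRL gave 0 to 1 genes (1 without Act + FST replicate 2). The interaction gave 626 to 1048 genes (626 without CTRL replicate 3, 641 without FST replicate 1) and 7 to 13 pathway genes (7 without Act replicate 3 or FST replicate 1). Signs turned only where no call was made. In FST versus CTRL, leaving out libraries gave −0.03 to 0.001 for *Plcb3*, −0.707 to 0.048 for *Plcb4*, −0.077 to 0.024 for *Plcg1*, −0.564 to 0.021 for *Plcl1* and −0.032 to 0.027 for *Plcl2* (0.011 in replicates 2 and 3 only), and in Act + FST versus CTRL −0.04 to 0.029 for *Plcl2*. *Plcb4* and *Plcl1* in FST versus CTRL turned without FST replicate 2. The cause of these shifts was not tested. TMM scaling, planned as a further alternative, is not reported, because its tool is meant for read counts.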

Other observations

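Over the 12 libraries, the genes whose log2 values were most correlated with each called PLC gene were found among about 10633 others with a mean of at least 50. The 2 genes of a pair share their libraries, and the correlation takes in the differences between the 4 groups. For *Plcb2* they were *Lilra6* (r = 0.975), *Ntn1* (0.973) and *Gm15448* (0.971), and for *Plcb3* they were *Sowahc* (0.994), *Bin2* (0.991) and *Usp12* (0.990). For *Plcb4* they were *Tnfsf8* (0.960), *Gm37254* (0.957) and *Fkbp5* (0.949). *Prag1* (0.970), *Dusp6* (0.970) and *Rtn4rl1* (0.968) were nearest to *Plcg2*, and *4933412E12Rik* (0.963), *Haus8* (0.943) and *Ass1* (0.940) to *Plcd1*. *Plcl1* was nearest to *Enpp4* (0.984), *Dst* (0.979) and *Carmil1* (0.978). The size of the change differed within these groups, with log2 fold changes in Act versus CTRL of 1.19 for *Sowahc* and 0.41 for *Bin2* beside 0.27 for *Plcb3*.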
